A study of Mus musculus with 48 samples.

Results

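The 10 genes described here are Nfe2l2, which encodes the transcription factor NRF2, and 9 genes of its antioxidant pathway: Txnrd1, Sqstm1, Slc7a11, Hmox1, Nqo1, Gclm, Gclc, Srxn1 and Prdx1. They were taken by symbol, each matched 1 Ensembl identifier, and they are 10 of the 49315 genes in the deposited count table. All 10 passed the filter on low counts. Their RNA was measured in bone marrow-derived macrophages of 4 genotypes of mouse: wild type (WT), LynAKO and LynBKO, each named for the isoform of the tyrosine kinase Lyn that it lacks, and the total knockout LynKO. The sources used here do not give strain, age or the way the alleles were made. Marrow from 4 mice per genotype, 2 male and 2 female, was grown for 7 days in M-CSF from CMG14-12 cell-conditioned medium, and the macrophages of every group then rested overnight without M-CSF. Cultures then spent 2 h in medium alone (NT), in medium with LPS at 2 ng/mL, a lipopolysaccharide that Toll-like receptor 4 recognises, or in medium with R848 (resiquimod) at 20 ng/mL, which mouse cells recognise through Toll-like receptor 7. There were thus 48 libraries, 4 in each of 12 groups, with 1 dose of each ligand and 1 time point.

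NRF2 is held at a low level by KEAP1, an adaptor that directs it to degradation by a CUL3 ubiquitin ligase. Oxidants and electrophiles modify KEAP1, NRF2 then accumulates, pairs with a small MAF protein and binds antioxidant response elements near its target genes, where BACH1 competes for the same sites. Its targets make and use glutathione and thioredoxin, degrade heme and reduce quinones, and in macrophages the pathway is known for limiting oxidative damage and inflammatory gene expression. The amount of Nfe2l2 mRNA is not a measure of NRF2 protein, which is regulated mainly by degradation.

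Promoter sequence was available for 8 of the 10 genes, as RefSeq windows of build GRCm38.p6 that start 250 bases before the transcription start. Both strands were searched for the core of the antioxidant response element (TGACNNNGC), the AP-1 site (TGANTCA) and the C/EBP-ATF response element (TGATGNAA), the last because Slc7a11 is also a target of the amino acid response factor ATF4. The letters of the element core and of the AP-1 site can overlap, as they do in TGACTCAGC. The stretches below show the matches, in capitals, upstream of the starts of the genes whose RNA is described next. They run 5′ to 3′ on the strand of the gene.
Slc7a11, chr3:50443623-50443709, minus strand: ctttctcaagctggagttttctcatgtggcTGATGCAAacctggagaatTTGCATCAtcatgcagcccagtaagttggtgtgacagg
Srxn1, chr2:152105392-152105515, plus strand: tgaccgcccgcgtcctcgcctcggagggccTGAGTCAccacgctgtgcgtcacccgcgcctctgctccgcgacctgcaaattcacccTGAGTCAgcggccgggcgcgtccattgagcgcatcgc
Prdx1, chr4:116685349-116685504, plus strand: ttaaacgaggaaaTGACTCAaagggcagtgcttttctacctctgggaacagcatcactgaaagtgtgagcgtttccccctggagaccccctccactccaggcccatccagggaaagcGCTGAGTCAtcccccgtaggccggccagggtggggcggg
Gclm, chr3:122245393-122245461, plus strand: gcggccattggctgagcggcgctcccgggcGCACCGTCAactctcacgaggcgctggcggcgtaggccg
Txnrd1, chr10:82859084-82859152, plus strand, before the second of its starts: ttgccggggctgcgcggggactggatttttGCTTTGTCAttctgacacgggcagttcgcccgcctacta
The capitals in Slc7a11 are 2 C/EBP-ATF matches, TGATGCAA on each strand, and those in Srxn1 are 2 AP-1 matches. The match nearer the start of Srxn1 is followed by gc. It differs from the letters searched for the element core only in the fourth, G in place of C, and was not counted as a core. In Prdx1 the capitals mark an AP-1 match and, nearer the start, an element core read on the opposite strand (TGACTCAGC) that overlaps a further AP-1 match. In Gclm and Txnrd1 they mark an element core on the opposite strand, TGACGGTGC and TGACAAAGC. The window of Nfe2l2 also held a core match, TGACTCCGC, whose surroundings are not printed, and the windows of Sqstm1 and Nqo1 held none of the 3 motifs. The element core was thus found in 4 of the 10 windows of the 8 genes (Txnrd1 has 3 windows), and the same letters occur in 10.2% of all 32851 windows of that length. AP-1 matches occur in 6.75% and C/EBP-ATF matches in 3.45%. A match describes the letters only, and a missing match covers only the 250 bases searched.

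In GRCm38 the genes lie as follows, per GENCODE M21: Nfe2l2 at chr2:75675513-75704641, Srxn1 at chr2:152105516-152111376, Slc7a11 at chr3:49892526-50443614, Gclm at chr3:122245557-122270732, Prdx1 at chr4:116685544-116700822, Hmox1 at chr8:75093621-75100589, Nqo1 at chr8:107388225-107403206, Gclc at chr9:77754535-77794485, Txnrd1 at chr10:82833951-82897712 and Sqstm1 at chr11:50199366-50210827. All are protein-coding, and counts cover their exons. Gclm overlaps Gm17494 and Sqstm1 overlaps Mrnip on the other strand, and Txnrd1 overlaps Eid3 on its own. The sources used here do not say whether counting used strand, but the overlapping genes held few counts: 1341 beside 186526 for Gclm, 784 beside 1667019 for Sqstm1 and 2016 beside 780000 for Txnrd1, over all libraries. Nfe2l2 and Slc7a11 also overlap genes on their own strand, Gm24996 (172 counts beside 407376) and Gm37498 (503 beside 197237). The further genes that overlap Slc7a11 or Gclm held 0 to 3 counts.

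Libraries held 14974764 to 23321447 counts. Levels are given as CPM, counts relative to the scaled library total. Lyn RNA followed the labels: its range without ligand was 167 to 191 CPM for WT, 107 to 131 for LynAKO, 119 to 133 for LynBKO and 64.0 to 72.8 for LynKO, and in each treatment the LynKO range lay below the others and the WT range above them. These counts are per gene and do not separate the Lyn isoforms. All 8 macrophage markers passed the filter, with a summed level of 19600 to 43300 CPM. The summed level was 3.65 to 29.1 CPM for 8 neutrophil markers, 0.38 to 23.4 for 5 stromal markers, 0.366 to 12.8 for 5 dendritic cell markers and at most 5.02 for 5 B cell markers. The libraries LynBKO NT 4 and LynKO NT 4, labelled female, held both Xist and Y-linked RNA (133 and 70.8 CPM of Y-linked genes, against at most 0.709 in the other libraries labelled female). LynBKO NT 2, labelled female (241 CPM of Xist), and NT 3, labelled male (220 CPM of Y-linked genes), held RNA that matched their sex labels. The LPS and R848 libraries of LynBKO number 2 were male and those of number 3 female. The mouse numbers of these 2 NT libraries are thus in doubt. Without LynBKO NT 4 and LynKO NT 4, the number of the 10 genes past the threshold was the same in 15 of the 16 comparisons these libraries enter, and the exception is given with Gclm.

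Among the 10 genes, compared per length as FPKM (CPM per kilobase of exon), the unstimulated WT macrophages contained most RNA of Prdx1, a peroxiredoxin that reduces hydrogen peroxide, at 294 ± 20.1 (mean ± SD, n = 4 mice, as for all levels below). Sqstm1, which encodes the autophagy receptor p62 that can sequester KEAP1, followed at 209 ± 6.58, and Hmox1, the heme oxygenase gene, at 173 ± 12.1. Srxn1, which encodes sulfiredoxin, the enzyme that repairs overoxidised peroxiredoxins, was at 68.7 ± 7.6 and Nfe2l2 at 65.2 ± 3.7. This pair did not differ beyond its spread, nor did the next, Txnrd1 (cytosolic thioredoxin reductase) at 41.1 ± 4.51 and Gclm at 39.5 ± 5.07. Gclm and Gclc encode the modifier and the catalytic subunit of glutamate-cysteine ligase, the rate-limiting enzyme of glutathione synthesis, and Gclc was at 12.2 ± 2.38 FPKM. At the bottom stood the quinone reductase gene Nqo1 at 3.05 ± 0.322 and Slc7a11, which encodes the cystine importer subunit xCT, at 0.869 ± 0.191.

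**Figure D1:**
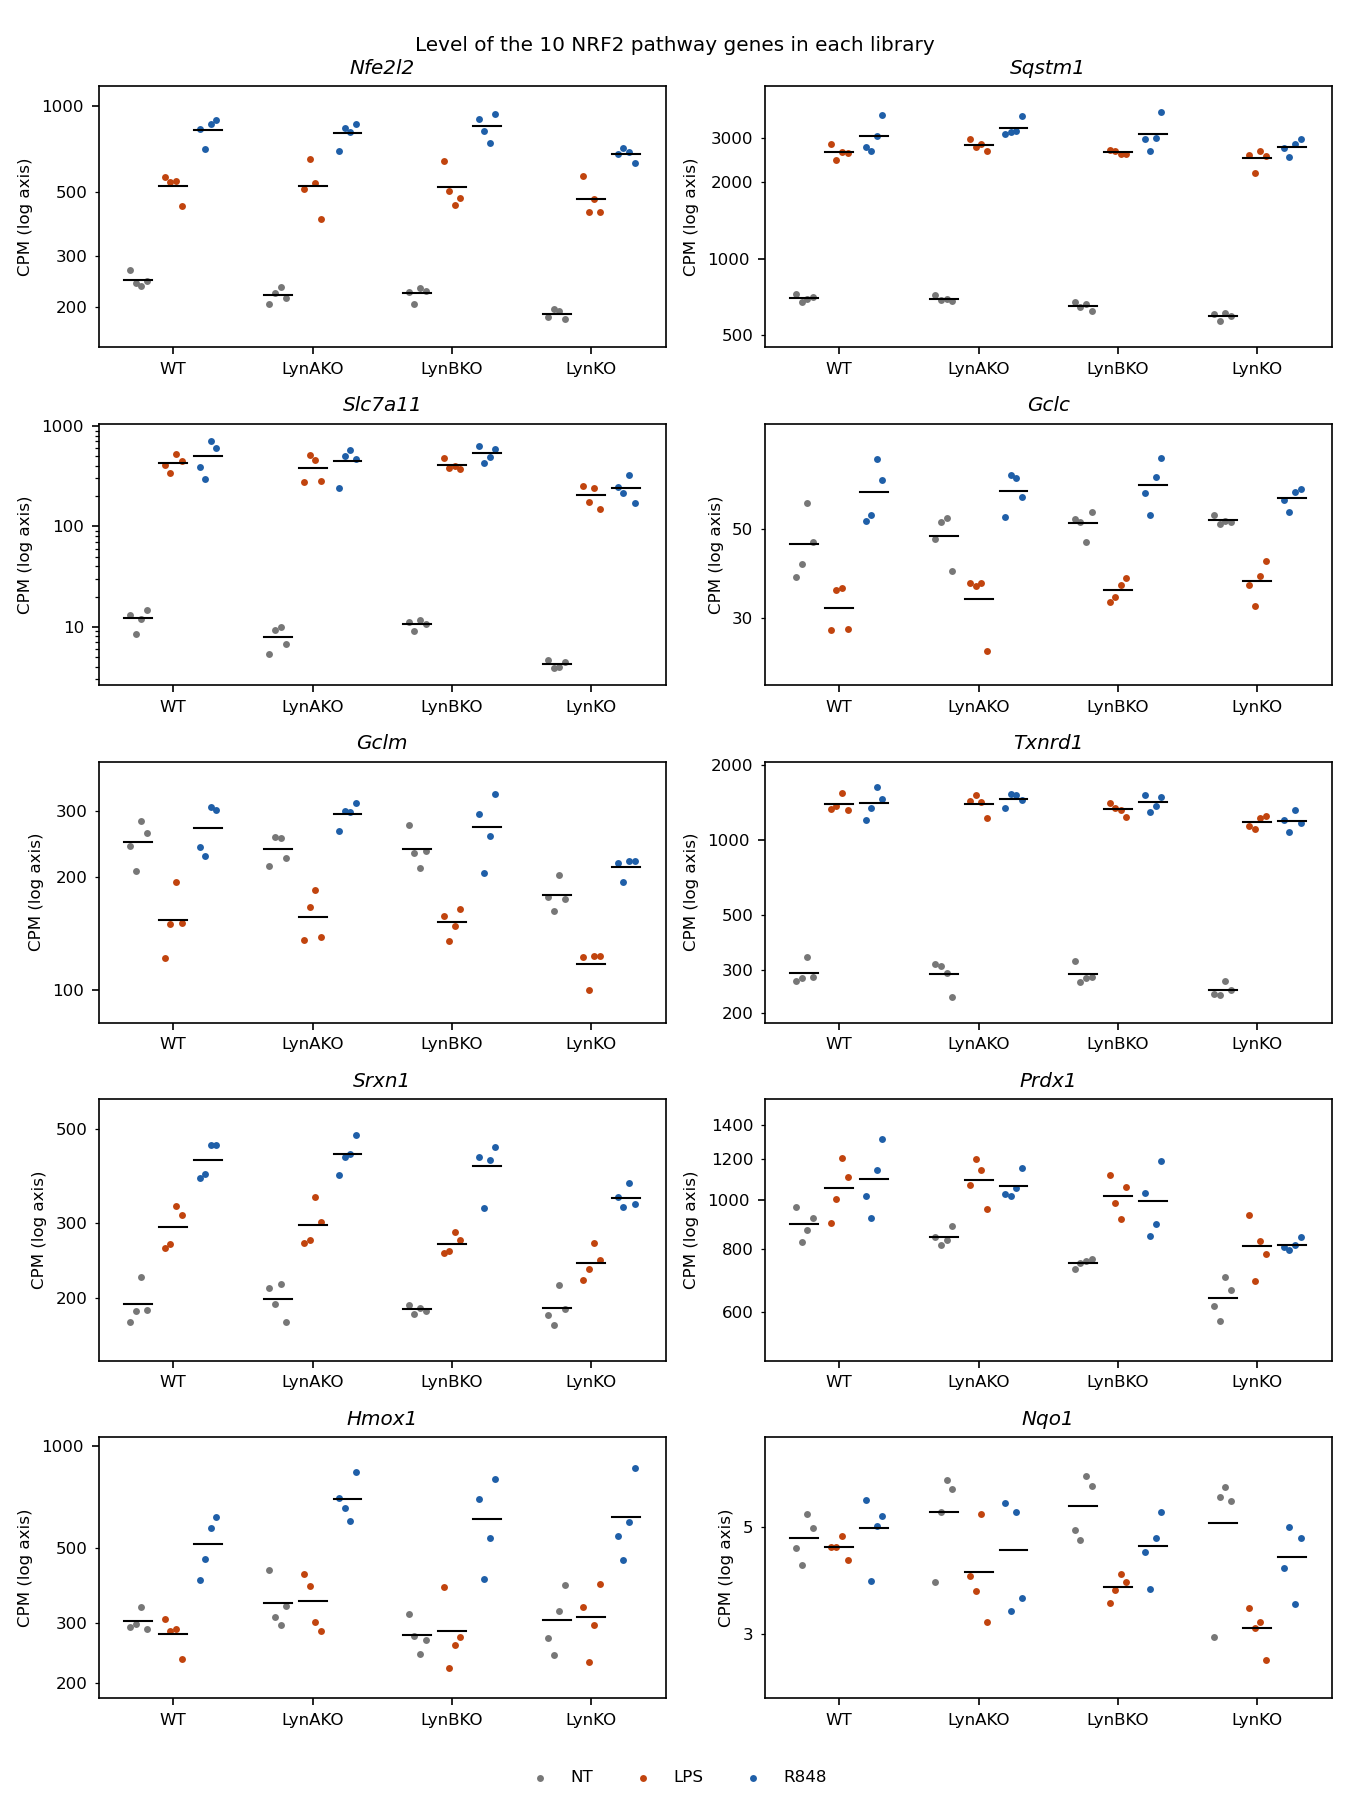
Level of each of the 10 genes in all 48 libraries, in CPM on a log axis, by genotype and, in grey, red and blue, by treatment (NT, LPS, R848). Each point is 1 library and each bar the mean of 4. Slc7a11 spans the widest range, from 3.92 to 705 CPM, and Nqo1 stays between 2.65 and 6.39 CPM.

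The genes differed in what their levels followed. As a description, treatment accounted for 98.4% of the variance of log2 CPM over the 48 libraries for Sqstm1, 98.1% for Txnrd1, 95.2% for Slc7a11 and 95.0% for Nfe2l2. It accounted for 88.5% for Srxn1, 80.1% for Gclc, 73.0% for Hmox1 and 70.1% for Gclm. Prdx1 was the gene with a larger share between genotypes (41.2%) than between treatments (36.4%). For Nqo1, 52.7% lay between mice of the same group, at counts as low as 41 in a library. The highest group mean was 126 times the lowest for Slc7a11, 5.9 times for Txnrd1, 5.49 times for Sqstm1 and 4.49 times for Nfe2l2, and no more than 2.53 times for the other 6. The plot of levels by library shows this order.

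In WT macrophages, 5 of the 10 genes rose with both ligands: Slc7a11, Txnrd1, Sqstm1, Nfe2l2 and Srxn1. With LPS these 5 rose, Gclm and Gclc fell and 3 were not called, where 31.5% of all 13986 genes tested rose and 30% fell. With R848, 8 rose and none fell, with Gclm and Nqo1 not called, where 30% of all genes rose and 26.7% fell. Called means an adjusted p under 0.05 by edgeR's quasi-likelihood test. The median log2 change of the 10 was 0.43 with LPS and 0.97 with R848, beside -0.03 over all genes tested for each. Both comparisons use the same NT libraries. Differences between libraries of bulk RNA cannot tell more cells of a type from more RNA per cell. Markers of other cell types also differed between the treatments of WT. The sum of 8 neutrophil markers, 5 of them past the filter, was 3.65 to 8.88 CPM in NT, 12.7 to 20.4 with LPS and 10.9 to 28.0 with R848. That of 5 dendritic cell markers, 3 past the filter, was 0.366 to 0.892, 6.37 to 9.05 and 4.53 to 10.1 CPM, and that of 5 stromal markers, 3 past the filter, 0.573 to 5.03, 8.91 to 23.4 and 4.54 to 10.3 CPM. Over all libraries, Xcr1 reached 11.6 CPM and no other dendritic cell marker passed 1.49. Pdgfrb reached 21.5 CPM and no other stromal marker passed 3.25. The highest sums of the dendritic cell and stromal lists were thus mostly Xcr1 and Pdgfrb. No marker of these 3 lists was at 0 in all libraries, and the part of these levels in the ligand responses was not tested.

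Slc7a11 changed most. Its level in WT mice 1 to 4 was 13.1, 8.47, 12.1 and 14.7 CPM without ligand, 405, 341, 522 and 449 with LPS and 393, 293, 705 and 604 with R848. Every stimulated library lay far above every NT library, while the LPS and R848 ranges overlapped. The log2 fold change was 5.16 ± 0.26 with LPS and 5.39 ± 0.26 with R848 (± SE; adjusted p = 5.91e-12 and 5.96e-12, edgeR), or 35.8-fold and 41.9-fold. The gene thus went from the lowest of the 10 to a level per length of 30.8 and 35.8 FPKM.

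Txnrd1 stood at 268, 277, 338 and 281 CPM in the 4 NT libraries, 1329, 1377, 1554 and 1325 with LPS and 1202, 1350, 1634 and 1461 with R848. Its log2 change was 2.28 ± 0.10 and 2.31 ± 0.10, or 4.84-fold and 4.945-fold, and NT did not overlap with either. Sqstm1 moved by nearly as much: 728, 677, 694 and 711 CPM became 2827, 2438, 2632 and 2600 with LPS and 2752, 2655, 3050 and 3667 with R848, a log2 change of 1.91 ± 0.10 and 2.14 ± 0.10. Of the 10 genes, these had the smallest share of variance between mice of the same group (1.05% for Txnrd1 and 0.94% for Sqstm1).

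Nfe2l2 itself was at 268, 242, 235 and 245 CPM without ligand, 563, 541, 548 and 448 with LPS and 827, 707, 863 and 889 with R848. The 3 groups did not overlap. Its log2 change was 1.10 ± 0.09 with LPS and 1.76 ± 0.09 with R848 (adjusted p = 8.84e-09 and 2.17e-11, edgeR). Srxn1 showed the same order, with 176, 187, 225 and 188 CPM in NT, 263, 268, 329.9 and 314 with LPS and 383, 392, 459 and 458 with R848, and log2 changes of 0.61 ± 0.10 and 1.16 ± 0.10.

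The glutamate-cysteine ligase genes did not rise with LPS: both fell. Gclm was at 242, 208, 282 and 262 CPM in NT and 122, 149.8, 194 and 150.3 with LPS, and Gclc at 37.9, 40.8, 58.2 and 46.3 in NT and 27.9, 35.3, 35.7 and 28.1 with LPS. All 4 LPS libraries lay below all 4 NT libraries for each gene. The log2 change was -0.68 ± 0.14 for Gclm (adjusted p = 0.000281) and -0.51 ± 0.14 for Gclc (adjusted p = 0.00462, edgeR). With R848 Gclc stood at 52.3, 54.3, 74.8 and 66.2 CPM, higher than the NT library of the same mouse in 4 of 4 mice although the groups overlapped, and its log2 change was 0.46 ± 0.14 (adjusted p = 0.0098). Gclm with R848 was at 241, 228, 307 and 302 CPM and was not called (0.15 ± 0.13, adjusted p = 0.369).

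Hmox1 responded to R848 and not detectably to LPS. Its level was 292, 299, 335 and 289 CPM in NT, 309, 285, 289 and 235 with LPS and 402, 465, 573 and 615 with R848, with log2 changes of -0.11 ± 0.12 (adjusted p = 0.45) and 0.79 ± 0.12 (adjusted p = 1.83e-05). The R848 libraries lay above all the others. Prdx1 changed little: 896 ± 61.2 CPM in NT, 1054 ± 133 with LPS and 1098 ± 172 with R848. The R848 difference was called (0.32 ± 0.11, adjusted p = 0.0198, edgeR), but not without WT mouse 3 (0.106) or mouse 4 (0.121), and the LPS difference (0.25 ± 0.11, adjusted p = 0.0608) was called when the mouse was a term of the model (0.0219), when sex was a covariate (0.0332), in the model of all 48 libraries (0.0319), by DESeq2 (0.0441) and without WT mouse 1 (0.0174). Nqo1 was at 4.74 ± 0.499 CPM in NT, 4.54 ± 0.211 with LPS and 4.97 ± 0.782 with R848, and was called with neither.

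**Figure D2:**
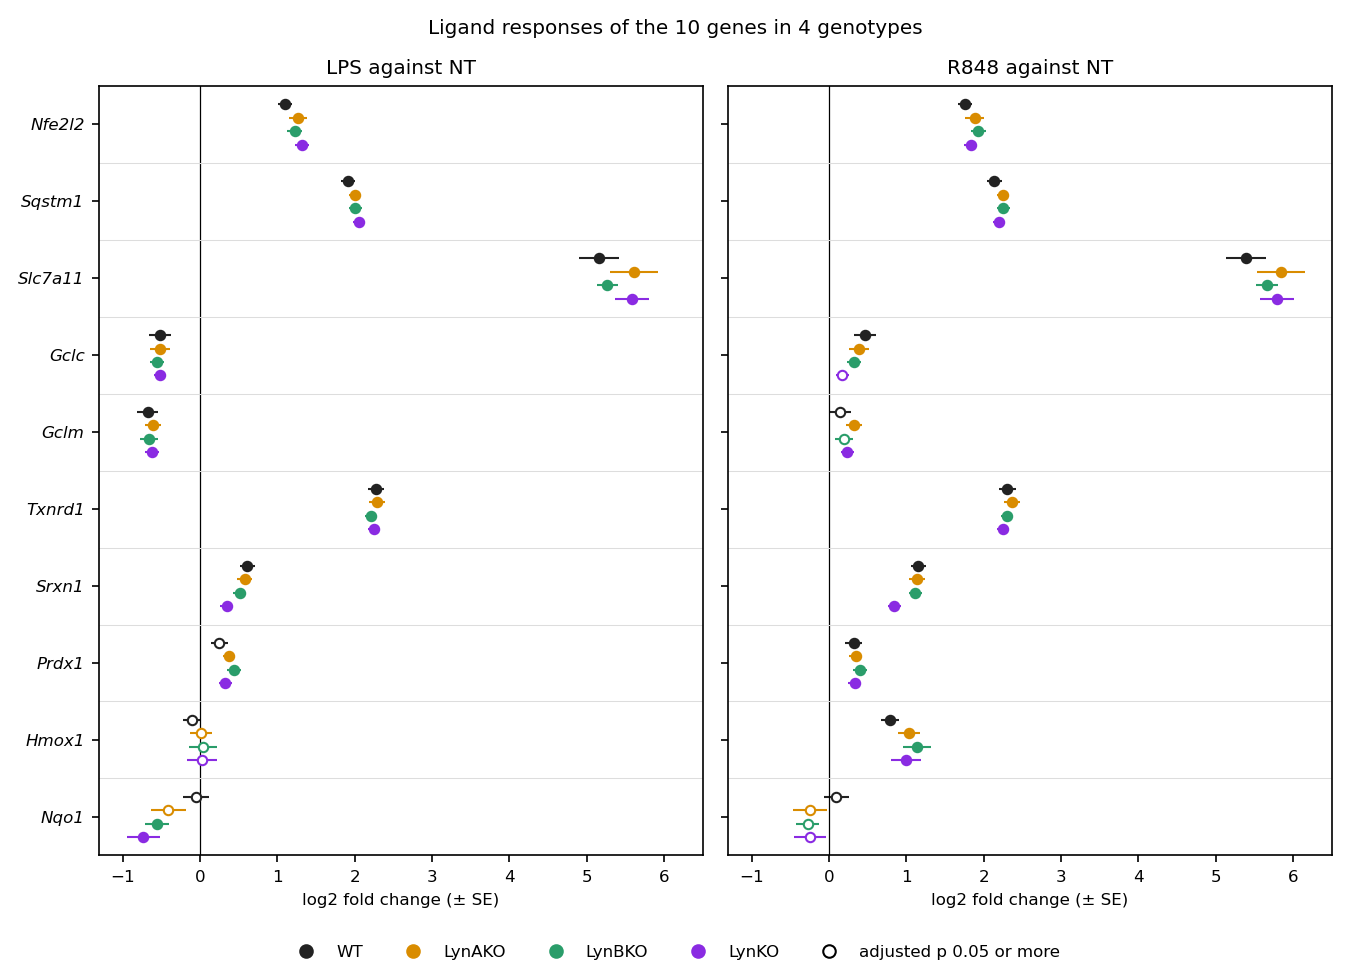
Log2 fold change of each gene with LPS (left) and R848 (right) against NT, by genotype, from edgeR with 4 mice per group. Bars are the SE and open points have an adjusted p of 0.05 or more. Gclc and Gclm lie below 0 with LPS in all 4 genotypes and above 0 with R848.

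The direct comparison of R848 with LPS divided the genes. In WT, 5 of the 10 were higher with R848 and none lower, where 10% of all genes tested were called higher: Gclc (0.97 ± 0.14), Hmox1 (0.89 ± 0.12), Gclm (0.82 ± 0.14), Nfe2l2 (0.66 ± 0.09) and Srxn1 (0.54 ± 0.10). The adjusted p of these 5 was 3.6e-05 to 0.000739 (edgeR), and for each of them all R848 libraries lay above all LPS libraries, where 21.8% of all genes had groups that did not overlap. Txnrd1 (0.03 ± 0.10), Prdx1 (0.07 ± 0.11) and Slc7a11 (0.23 ± 0.21) were not called. No difference between the ligands was thus detected in WT for Txnrd1 and Slc7a11, 2 of the genes with the largest responses. This does not show equal levels. The 2 ligands were used at 1 dose each, so the comparison is between these doses.

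The same 5 genes were higher with R848 than with LPS in LynAKO, LynBKO and LynKO, without overlap of the groups and in 4 of 4 mice each time. Among all genes, 7.92% in LynAKO, 12.3% in LynBKO and 6.13% in LynKO were called higher, and 19.8%, 25.3% and 17.3% had groups without overlap. For Gclc the log2 difference was 0.91 ± 0.14 in LynAKO, 0.88 ± 0.09 in LynBKO and 0.69 ± 0.08 in LynKO. It was 0.93 ± 0.10, 0.85 ± 0.12 and 0.86 ± 0.09 for Gclm, and 1.02 ± 0.14, 1.10 ± 0.18 and 0.97 ± 0.19 for Hmox1. Thus both ligase subunits and heme oxygenase held 1.61 to 2.14 times as much RNA with R848 as with LPS, depending on the genotype. Nfe2l2 differed by 0.51 to 0.71 and Srxn1 by 0.50 to 0.60 over the 3 knockouts.

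Sqstm1 was borderline in this comparison. It was called in LynAKO (0.24 ± 0.07, adjusted p = 0.0326) and LynBKO (0.24 ± 0.08, adjusted p = 0.0363) and not in WT (0.22 ± 0.09, adjusted p = 0.0988) or LynKO (0.14 ± 0.07, adjusted p = 0.216; edgeR). With the mouse as a term of the model it was called in WT (0.0437) and LynKO (0.0382) as well. Without mouse 4 the adjusted p was 0.0762 in LynAKO and 0.193 in LynBKO, without mouse 3 it was 0.139 and 0.0854, without LynAKO mouse 2 it was 0.166 and without LynBKO mouse 1 it was 0.063. Without the filter on low counts it was 0.0839 in LynAKO. Slc7a11 was called in LynBKO alone (0.39 ± 0.11, adjusted p = 0.0152), and not without LynBKO mouse 4 (0.136) or in the model of all 48 libraries (0.236).

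**Figure D3:**
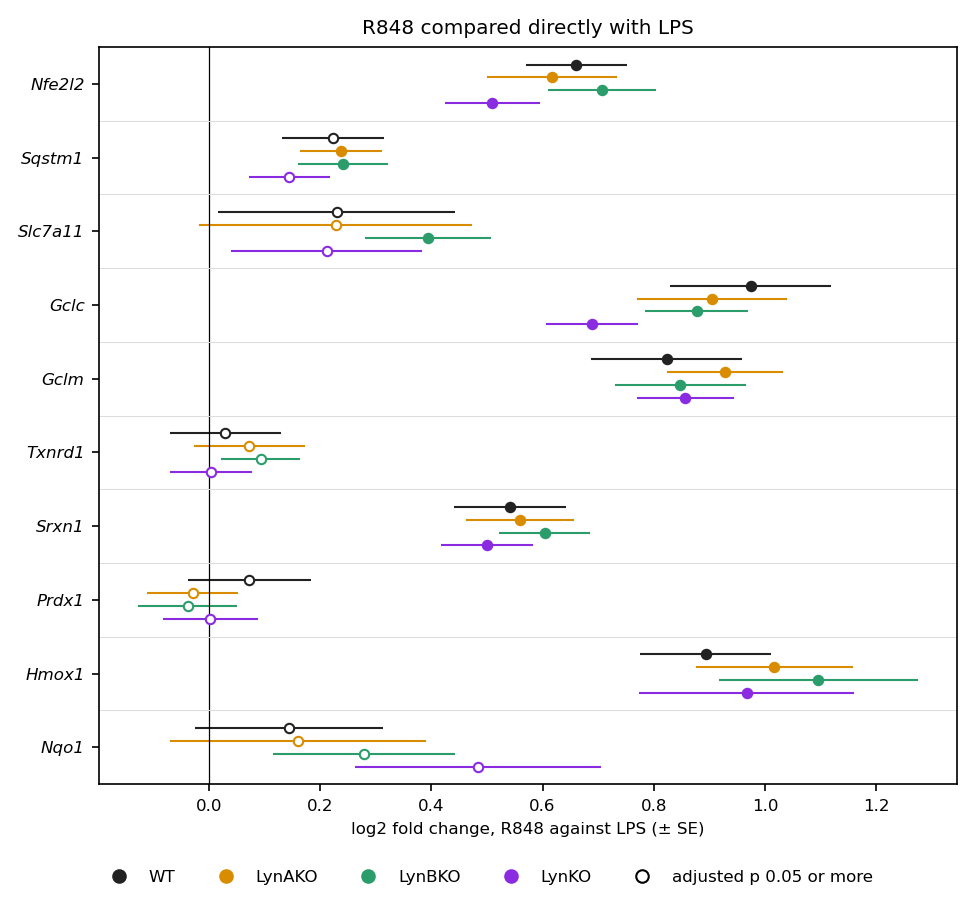
Log2 difference between R848 and LPS for each gene and genotype, with its SE, from edgeR with 4 mice per group. Open points have an adjusted p of 0.05 or more. Gclc, Gclm, Hmox1, Srxn1 and Nfe2l2 lie to the right of 0 in every genotype, while Txnrd1 and Prdx1 lie within 0.1 of it.

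In the knockouts the 5 genes named first for WT rose with LPS and with R848 as well. With LPS, 6 genes rose and 2 fell in LynAKO (30.4% and 30.3% of all genes), 6 rose and 3 fell in LynBKO (33.9% and 33.4%), and 6 rose and 3 fell in LynKO (31% and 30.7%). Slc7a11 again rose most, with a log2 change of 5.61 ± 0.31 for LynAKO, 5.27 ± 0.14 for LynBKO and 5.58 ± 0.22 for LynKO. Gclm fell in all 3, with log2 changes of -0.60, -0.66 and -0.62, and so did Gclc, with -0.52, -0.56 and -0.52. Prdx1 was called in the 3 knockouts (0.37, 0.44 and 0.33), in LynKO not without mouse 1 (adjusted p = 0.0616). Nqo1 is the third gene that fell: 5.52 ± 0.835 to 3.75 ± 0.22 CPM in LynBKO (-0.56 ± 0.16) and 5.1 ± 1.45 to 3.08 ± 0.317 in LynKO (-0.73 ± 0.21). In LynKO the Nqo1 groups overlapped through NT mouse 1, at 2.95 CPM, and the call was lost without mouse 2 (0.0522) or mouse 3 (0.0506).

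With R848, 9 genes rose in LynAKO (29% of all genes), 8 in LynBKO (31.3%) and 8 in LynKO (28.4%), and none fell, where 26.9%, 32.2% and 27% of all genes did. Gclm was the gene that varied around the threshold. It was called in LynAKO (0.33 ± 0.10, adjusted p = 0.0129) and LynKO (0.24 ± 0.09, adjusted p = 0.031) and not in LynBKO (0.19 ± 0.12, adjusted p = 0.162). Leaving out LynAKO mouse 4 ended the LynAKO call (0.0686), and leaving out LynKO mouse 1 (0.128), mouse 4 (0.0833) or the library LynKO NT 4 alone (0.0693) ended that in LynKO. The LynKO call was also lost in the model of all 48 libraries (0.079). Gclc was called in LynAKO (0.39 ± 0.13, not without mouse 2, 0.0663, or mouse 3, 0.0518) and LynBKO (0.32 ± 0.09), and in LynKO only with the mouse as a term (0.17 ± 0.08, adjusted p = 0.0843 without the term and 0.0377 with it). Hmox1 rose in each knockout, with log2 changes of 1.03 for LynAKO, 1.14 for LynBKO and 0.99 for LynKO.

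Whether a knockout changed a ligand response was tested in the model of all 48 libraries, which had no term for the mouse. With the mouse, as labelled, as a term, 0 of the 10 genes were called in these tests. None of the 10 genes passed in any of the 6 differences from WT by edgeR, where 0% of all genes were called for LynAKO and LynBKO and, for LynKO, 0.1% with LPS and 0.193% with R848, and DESeq2 also called 0. At an unadjusted p under 0.05, 1 gene counted in the LPS response of LynKO, where 7.6% of all genes did, and 0 in the other 5. That gene was Nqo1, whose log2 LPS response in LynKO minus that in WT was -0.66 ± 0.27 (adjusted p = 0.493). For Slc7a11 the difference in LynKO was 0.44 ± 0.36 with LPS and 0.45 ± 0.36 with R848, for Srxn1 -0.25 ± 0.13 and -0.27 ± 0.13. None of these differences passed the adjusted threshold, which does not show that the responses were equal.

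The levels themselves were lower in LynKO for part of the genes. Without ligand, 5 of the 10 fell relative to WT and none rose, where 4.47% of all genes were called lower: Slc7a11, Prdx1, Gclm, Nfe2l2 and Sqstm1. Slc7a11 was 13.1, 8.47, 12.1 and 14.7 CPM in the 4 WT mice and 4.66, 3.92, 3.95 and 4.49 in the 4 LynKO mice. Prdx1 was 968, 826, 871 and 918 against 616, 577, 702 and 664, Gclm 242, 208, 282 and 262 against 176, 162, 203 and 174, and Nfe2l2 268, 242, 235 and 245 against 184, 196, 194 and 180.3. In all 5 genes the LynKO mice lay below the WT mice without overlap, as groups did not overlap for 16.3% of all genes.

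The log2 difference was -1.49 ± 0.18 for Slc7a11 (adjusted p = 2.55e-05), -0.47 ± 0.07 for Prdx1 (8.65e-05), -0.46 ± 0.09 for Gclm (0.00269), -0.38 ± 0.06 for Nfe2l2 (0.000343) and -0.22 ± 0.05 for Sqstm1 (0.00615, edgeR). The Sqstm1 difference, 702 ± 22.1 against 596 ± 20.7 CPM, was not called in the model of all 48 libraries (0.061). The other subunit of the ligase was not called: Gclc was 45.8 ± 8.98 CPM in WT and 52.6 ± 1.21 in LynKO (0.21 ± 0.11, adjusted p = 0.237), and without WT mouse 3 it was called higher in LynKO (0.34, adjusted p = 0.0204). Hmox1 (0.03 ± 0.13), Srxn1 (-0.01 ± 0.08), Txnrd1 (-0.22 ± 0.09) and Nqo1 (0.12 ± 0.20) were not called either. The count stayed 5 without the libraries LynBKO NT 4 and LynKO NT 4.

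With a ligand, Slc7a11 and Prdx1 were the genes still called in LynKO, lower for 2 of 10 with LPS (4.06% of all genes) and 2 of 10 with R848 (2.74%). Slc7a11 with LPS was 252, 177, 242 and 150.5 CPM in LynKO, below all 4 WT values given above, a log2 difference of -1.05 ± 0.19 (adjusted p = 0.0016, edgeR). With R848 it was 247, 215, 322 and 172 CPM and overlapped with WT (-1.06 ± 0.26, adjusted p = 0.0223). The stimulated LynKO macrophages thus held less Slc7a11 RNA than WT by a factor of 2.06 with LPS and 2.08 with R848, beside 2.82 without ligand. Prdx1 differed by -0.36 ± 0.10 with LPS and -0.43 ± 0.11 with R848 (adjusted p = 0.0275 and 0.0214), and its LynKO and WT groups overlapped with LPS only. By DESeq2, 5 of the 10 genes were called with LPS and 4 with R848, and the shares above are those of edgeR. Over all genes, the main edgeR fit gave 1187 calls with LPS and the alternative settings, DESeq2 among them, 663 to 1697. With R848 these numbers were 829 and 464 to 1753.

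The edgeR calls of Slc7a11 and Prdx1 with a ligand depended on single mice except that of Slc7a11 with LPS. Slc7a11 with R848 was not called without WT mouse 3 (0.0853), WT mouse 4 (0.0675) or LynKO mouse 1 (0.051), 2 (0.0567) or 4 (0.0634). Prdx1 with R848 was not called without WT mouse 3 (0.0568), WT mouse 4 (0.0772) or LynKO mouse 1 (0.056) or 2 (0.0529). Prdx1 with LPS was not called without WT mouse 3 (0.0893) or 4 (0.0693) or LynKO mouse 2 (0.0986), 3 (0.0513) or 4 (0.0664). Gclm with LPS (-0.38 ± 0.12, adjusted p = 0.0578), Nqo1 with LPS (-0.54 ± 0.17, 0.0556) and Nfe2l2 with R848 (-0.28 ± 0.09, 0.076) just missed the threshold. The summed level of the 8 macrophage markers was also lower in LynKO: 22700 to 25400 CPM against 35300 to 43300 in WT without ligand, 20700 to 24300 against 31300 to 37200 with LPS, and 19600 to 25100 against 32500 to 35500 with R848. Most of this sum is lysozyme (Lyz2), and without it the sums were 6460 to 7100 against 6830 to 7350, 6680 to 7110 against 7100 to 8080, and 6590 to 7600 against 7380 to 8160. The neutrophil markers summed to 3.75 to 5.6 CPM in LynKO and 3.65 to 8.88 in WT without ligand, and to 7.55 to 13.0 and 12.7 to 20.4 with LPS. The part of these marker levels in the LynKO differences was not tested.

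**Figure D4:**
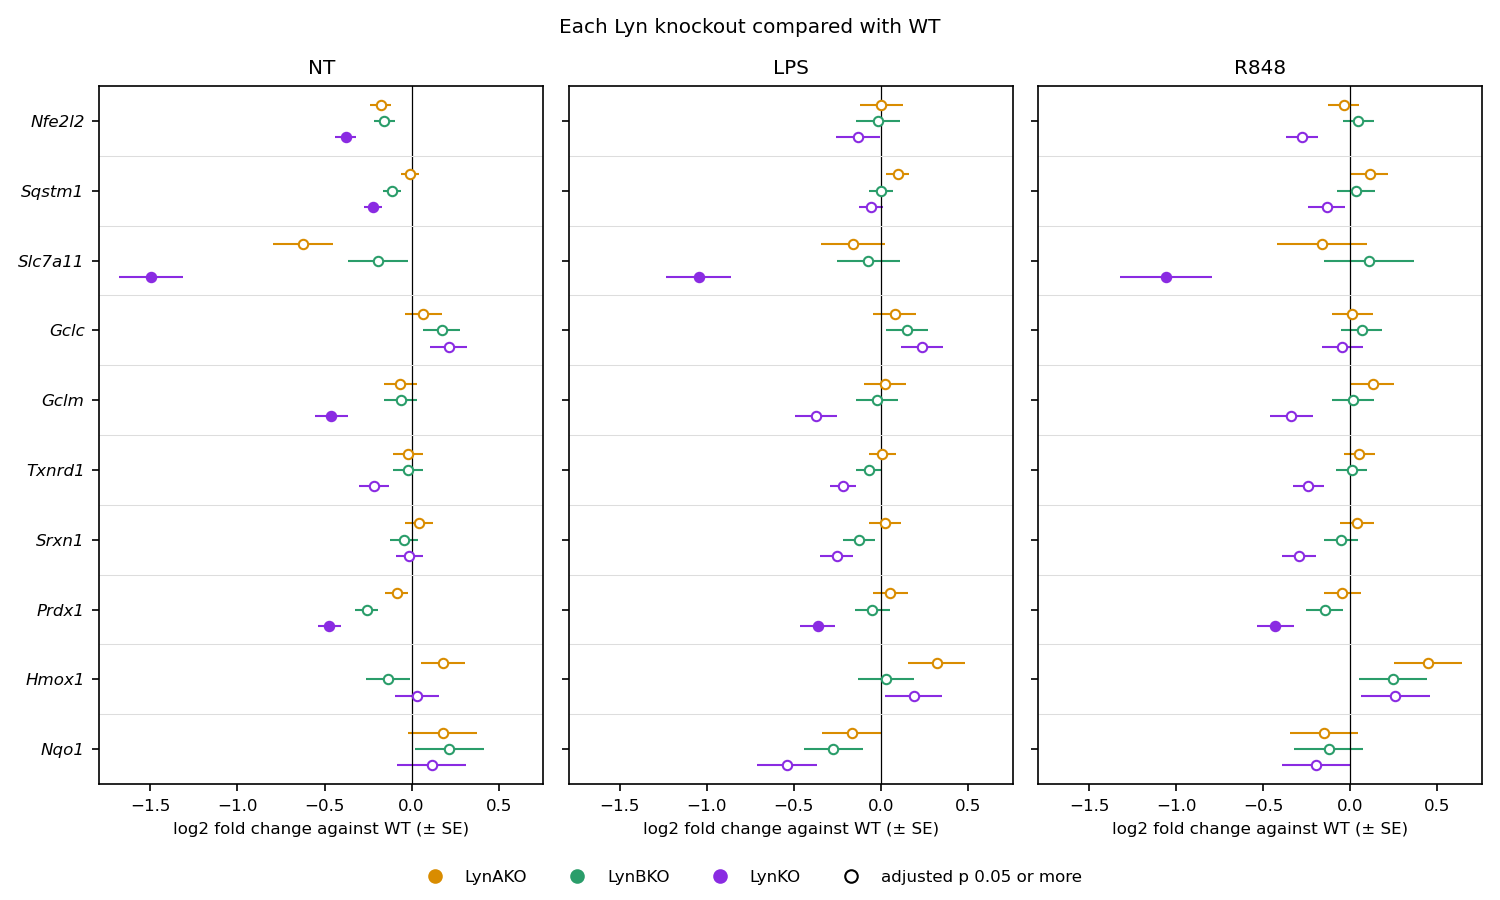
Log2 difference of each gene between a Lyn knockout and WT within NT, LPS and R848, with its SE, from edgeR with 4 mice per group. Open points have an adjusted p of 0.05 or more. Filled points are present for LynKO alone, with Slc7a11 farthest to the left in each treatment, between -1.49 and -1.05.

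Loss of a single isoform gave no call among the 10 genes in any treatment by edgeR, in LynAKO or in LynBKO, where NT, LPS and R848 gave 0.0286%, 0.0215% and 0.00715% of all genes for LynAKO and 0.0644%, 0.0358% and 0% for LynBKO. At an unadjusted p under 0.05, 2 genes counted for LynAKO and 3 for LynBKO without ligand, 0 and 0 with LPS, and 1 and 0 with R848. Over all genes that share was 4.8% for LynAKO and 13.2% for LynBKO without ligand, 5.34% and 5.43% with LPS, and 3.2% and 4.55% with R848. DESeq2 called 1, Prdx1 in LynBKO without ligand, and 0 in the other comparisons. Over all genes, LynBKO without ligand gave 9 calls by edgeR and 3 to 471 over the alternative settings, DESeq2 among them. Prdx1 was 730.3, 751, 756 and 763 CPM in LynBKO, below all 4 WT values (-0.26 ± 0.07, adjusted p = 0.157 by edgeR and 0.0249 by DESeq2). Slc7a11 without ligand was 5.35, 9.31, 9.89 and 6.75 CPM in LynAKO (-0.62 ± 0.17, adjusted p = 0.69) and 11.2, 8.98, 11.7 and 10.6 in LynBKO (-0.19 ± 0.17, adjusted p = 0.647). For this gene the LynKO values lay below those of LynAKO and LynBKO as well. LynBKO and LynAKO compared directly gave 0 of 10 in each treatment by edgeR, where 0% of all genes were called, and 0 by DESeq2, with 3, 0 and 0 at an unadjusted p under 0.05 in NT, LPS and R848 (8.39%, 2.52% and 3.18% of all genes).

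Of 8 regulators and partners of NRF2, 6 rose and none fell with LPS in WT, and 4 rose and 2 fell with R848, beside the shares of all genes given above (31.5% and 30% with LPS, 30% and 26.7% with R848). Keap1 was 59.6 ± 4.37 CPM in WT without ligand, 66.6 ± 6.88 with LPS and 45.3 ± 0.655 with R848. It fell with R848 in all 4 genotypes, with log2 changes of -0.37 in WT and, in the order LynAKO, LynBKO and LynKO, -0.37, -0.30 and -0.24. With LPS it was higher in the 3 knockouts (0.24, 0.20 and 0.30) and not called in WT (0.17, adjusted p = 0.0862, edgeR). In R848 against LPS it was lower in each genotype, with -0.54 ± 0.09 in WT, with no overlap of the groups.

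Bach1, the competitor of NRF2, was 114, 135, 139 and 124 CPM in NT, 129, 186, 169.6 and 182 with LPS and 108, 159.7, 109 and 76.2 with R848 in WT. It was called higher with LPS (0.39 ± 0.16, adjusted p = 0.0433), and its groups overlapped. That call was lost without WT mouse 2 (0.0557), 3 (0.106) or 4 (0.0904) and in the model of all 48 libraries (0.107). With R848 it was lower than with LPS (-0.54 ± 0.16, adjusted p = 0.0238), not without WT mouse 3 (0.111) or 4 (0.16), and so it was in the 3 knockouts, with overlap. The 3 small Maf genes, which encode the DNA-binding partners of NRF2 and of BACH1, took 3 different courses. Maff was 1.12, 4.1, 2.6 and 3.77 CPM in NT, 71.7, 49.9, 57.5 and 55.8 with LPS and 44.1, 44.3, 51.9 and 53.2 with R848, a log2 rise of 4.33 ± 0.23 and 4.07 ± 0.23. Mafg was 106 ± 7.01 CPM, 144 ± 10.9 with LPS and 248 ± 30.8 with R848, so it rose more with R848 (0.80 ± 0.09 for R848 against LPS). Mafk was 31.3 ± 2.65 CPM, 88.3 ± 15.8 with LPS and 23.9 ± 4.45 with R848, so it rose with LPS (1.51 ± 0.13) and fell with R848 in WT (-0.36 ± 0.13, adjusted p = 0.029, edgeR), and the ligands differed by -1.87 ± 0.14. The fall with R848 was not called without WT mouse 1 (0.0838), 2 (0.0638) or 3 (0.087), nor in LynAKO, LynBKO or LynKO. Mafk and Mafg differed between the ligands in the same directions in LynAKO, LynBKO and LynKO.

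**Figure D5:**
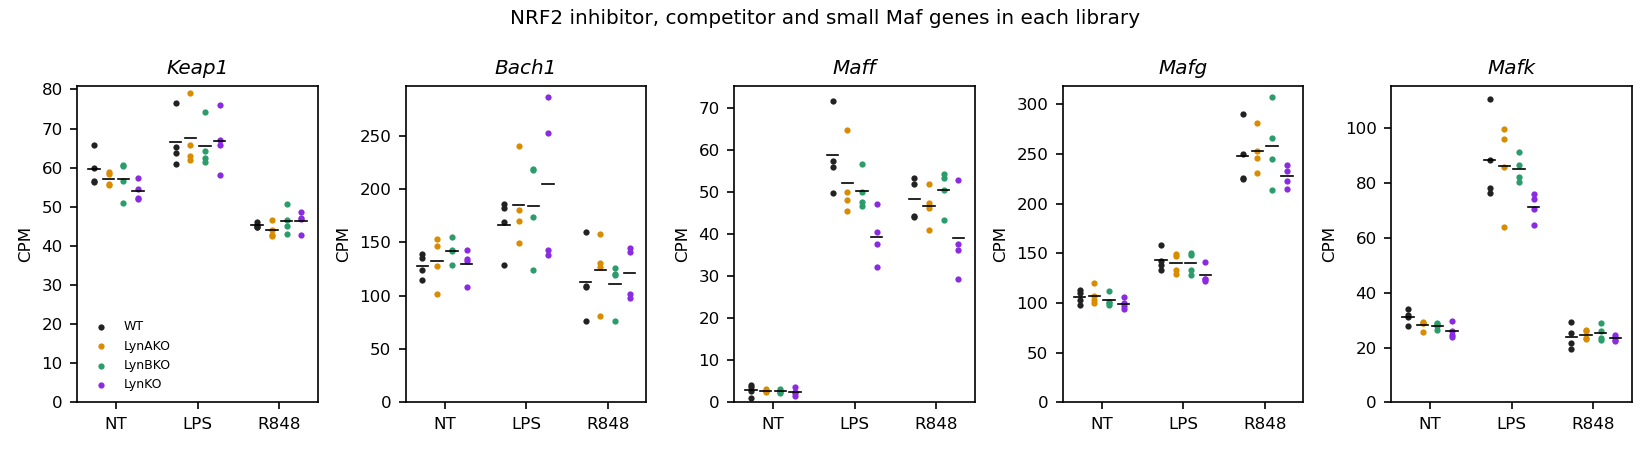
Level in CPM, on linear axes from 0, of Keap1, Bach1 and the small Maf genes in each of the 48 libraries, by treatment and, in colour, genotype. Points are libraries and bars means of 4. Mafk is highest with LPS and Mafg with R848, while Maff is at 4.1 CPM or less in every NT library and at 29.2 or more in every stimulated library.

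Of 60 further genes of the pathway, in 7 lists, 59 passed the filter. In WT, 23 rose and 15 fell with LPS, with a median log2 change of 0.07, and 19 rose and 21 fell with R848, with a median of 0.02, beside -0.03 over all genes. Over all genes 31.5% rose and 30% fell with LPS, and 30% and 26.7% with R848, which are the shares beside which the counts per list stand. Among the glutathione genes, 2 of 9 rose with each ligand, Glrx, which encodes glutaredoxin (1.75 ± 0.13 with LPS and 1.94 ± 0.13 with R848), and the glutathione reductase gene Gsr (1.39 ± 0.09 and 1.49 ± 0.09). The peroxidase gene Gpx4 fell (-0.36 ± 0.11 and -0.57 ± 0.11), as 1 of 2 with LPS and 1 of 4 with R848. In the thioredoxin system, 2 of 8 rose and 1 fell with LPS, and 3 rose and 3 fell with R848. Prdx5, a mitochondrial and cytosolic peroxiredoxin, went from 449 to 1427 CPM with LPS (1.68 ± 0.15) and to 1111 with R848 (1.33 ± 0.14). Txnip, which encodes an inhibitor of thioredoxin, fell from 682 to 196 and 156 CPM (-1.79 ± 0.18 and -2.10 ± 0.18).

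Of 8 genes of heme, iron and quinone handling, 5 fell and 2 rose with each ligand, where 30% of all genes fell with LPS and 26.7% with R848, and the iron exporter gene Slc40a1 (ferroportin) fell most, from 60.3 CPM to 22.2 with LPS (-1.43 ± 0.13) and 22.8 with R848 (-1.38 ± 0.13). Of the 6 genes of NADPH supply, 1 rose and 2 fell with each ligand, with Idh1 at -0.84 ± 0.08 and -0.74 ± 0.08. In the list of 10 other NRF2 targets, 3 rose and 2 fell with LPS, and 2 rose and 3 fell with R848. There the exporter gene Abcc1 rose with both ligands (1.68 ± 0.10 and 1.87 ± 0.10), the metallothionein gene Mt1 with LPS (77.3 to 313 CPM, 2.03 ± 0.15) and not with R848 (80.5 CPM, 0.09 ± 0.15), and Osgin1 fell, from 12.1 CPM to 2.15 with LPS (-2.49 ± 0.19) and 5.97 with R848 (-0.99 ± 0.17). Of 10 targets of ATF4 in the amino acid response, a list that bears on Slc7a11, 7 rose and 3 fell with LPS and 5 rose and 2 fell with R848. Atf4 rose with both (1.04 ± 0.09 and 1.19 ± 0.09), Slc7a5 rose from 2.95 to 10.7 CPM with LPS (1.88 ± 0.29), and Sesn2 fell from 39.4 to 5.74 and 9.4 CPM (-2.77 ± 0.16 and -2.04 ± 0.15). Slc3a2, which encodes the partner subunit of xCT and was singled out after its values were seen, rose with LPS, 297 to 393 CPM (0.42 ± 0.10), and was not called with R848, at 276 CPM (-0.08 ± 0.10). The ligands differed there by -0.50 ± 0.10.

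In LynKO without ligand, 16 of these 59 genes were lower than in WT and 1 was higher, with a median log2 difference of -0.13 beside 0.0 over all genes, of which 4.47% were lower and 5.43% higher. Without LynBKO NT 4 and LynKO NT 4 the counts were 11 and 0. Over all genes this comparison gave 1385 calls, and 962 to 1727 over the alternative settings, the one without these libraries among them. The lower genes included Slc40a1 (-1.57 ± 0.14, 60.3 against 20.1 CPM), the microsomal glutathione transferase gene Mgst1 (-0.78 ± 0.09), Prdx5 (-0.68 ± 0.11), Gsr (-0.55 ± 0.10), Idh1 (-0.52 ± 0.09), the biliverdin reductase gene Blvrb (-0.50 ± 0.09) and Prdx6 (-0.39 ± 0.07). The higher gene was Glrx (0.63 ± 0.17, adjusted p = 0.0193, edgeR), not called without those libraries (0.106), without WT mouse 1 (0.0791) or 4 (0.0554) or without LynKO mouse 4 (0.0893). With LPS 12 of the 59 genes were lower and 2 higher in LynKO (4.06% and 4.43% of all genes), and with R848 9 were lower and 3 higher (2.74% and 3.19%). Slc40a1, Mgst1 and Idh1 were among those lower in all 3 treatments. So were Gsr, Blvrb and Prdx5, but with R848 their calls depended on single mice. Gsr with R848 (adjusted p = 0.0164) was not called without WT mouse 3 (0.0513) or 4 (0.0506) or LynKO mouse 2 (0.0529). Blvrb with R848 (0.028) was not called without WT mouse 1 (0.0529) or 4 (0.1) or LynKO mouse 1 (0.0769), 2 (0.0644) or 3 (0.057). Prdx5 with R848 (0.0481) was not called in 11 of the settings that left out 1 mouse, with adjusted p from 0.052 to 0.167. In LynAKO and LynBKO, edgeR called none of the 59 in any treatment, with 3, 2 and 2 at an unadjusted p under 0.05 in LynAKO and 15, 5 and 3 in LynBKO for NT, LPS and R848. Over all genes that share was 4.8%, 5.34% and 3.2% for LynAKO and 13.2%, 5.43% and 4.55% for LynBKO. DESeq2 called 2 of the 59 lower in LynBKO without ligand and 0 in the other 5 comparisons. Over all genes, LynBKO without ligand gave 3 to 471 calls over the alternative settings, DESeq2 among them.

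As a description over the 12 group means of log2 CPM, which share libraries and treatments, the 10 genes fell into patterns that the pairwise Pearson correlations show. Txnrd1, Sqstm1 and Slc7a11 correlated at 0.99 to 0.997 with each other and at 0.946 to 0.963 with Nfe2l2. Srxn1 lay nearer to Nfe2l2 (0.964) than to Txnrd1 (0.856). Gclm and Gclc correlated with each other (0.83), with Hmox1 (0.62 and 0.747) and hardly with Nfe2l2 (0.111 and 0.188). Hmox1 itself correlated most with Srxn1 (0.823) and also with Nfe2l2 (0.71). Nqo1 correlated with Gclm at 0.705 and with Gclc at 0.485. Among 9372 genes with a mean of at least 5 CPM, those most like each of the 10 were Sh3tc1 and Nadk for Nfe2l2 (0.997 and 0.996), Tnf and Cdc42ep4 for Txnrd1 (0.999 and 0.998), Riok3 and Cxcl2 for Sqstm1 (both 0.999), and Clec5a and Msl2 for Slc7a11 (0.999 and 0.998). They were Tug1 and Foxn2 for Srxn1 (0.987 and 0.985), Maf and Phf21a for Gclm (0.98 and 0.973), Rmc1 and Gpkow for Gclc (0.975 and 0.974), Pitpna and Ppfibp2 for Hmox1 (0.975 and 0.954) and Phf1 and Ubxn7 for Nqo1 (0.91 and 0.908). For Prdx1 they were Prdx6 and Gpx3 (0.983 and 0.967), a peroxiredoxin and a glutathione peroxidase gene.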

How the data were processed

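Libraries of polyA RNA were sequenced as paired reads. Per gene, the authors deposited raw counts and, in a second table, variance-stabilised log2 values, both for 48 libraries. The submitters' processing notes name Trimmomatic 0.36, STAR 2.5.2b, featureCounts, Subread 1.5.2, DESeq2 and GRCm38. The sources used here do not state the annotation release or the strand setting. The log2 values deposited (13617 genes) were compared with the counts in each library (Spearman at least 0.99989) and not used further.

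From the counts, genes were kept by filterByExpr (minimum count 10, minimum total 15), which left 13986 of 49315, and libraries were scaled by TMM. Groups were compared with edgeR 4.0.16's quasi-likelihood test in R 4.3.3, with Benjamini-Hochberg adjustment over all genes within each of 30 comparisons and a threshold of 0.05. Ligands were compared within the 12 libraries of a genotype, genotypes within the 16 of a treatment, and response differences over all 48. The main fits had no term for the mouse, although each mouse gave a library per treatment. The SE is the fold change divided by the square root of F. CPM are scaled by TMM, FPKM divide them by exon length from GENCODE M21, and log2 CPM use a prior count of 2. Alternatives were DESeq2 1.42.0, its size factors, no filter, sex as a covariate, the mouse as a replicate block, 1 model of all libraries, each replicate left out, and the libraries LynBKO NT 4 and LynKO NT 4 left out.

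The numbers mark a mouse within a genotype: in WT, LynAKO and LynKO, libraries of the same number correlated at 0.11 to 0.42 in their deviations from the group means. LynBKO NT 2 and NT 3 correlated with their own number at -0.13 to -0.21 and at 0.12 to 0.21 when exchanged. Between libraries of a group the chi-square per gene was 5.03 to 35.34, so none was counted as a repeat of another. On simulated counts of 13986 genes with 200 changed 2-fold, the test recovered 70% in the design of the WT LPS comparison, 75.5% in that of unstimulated LynKO and WT, and 59.5% in that of the LPS response of LynKO. The simulated libraries were drawn independently, without pairing by mouse. In the real WT LPS comparison 31.5% of genes were called higher and 30% lower, so the 70% does not give its power. The members and lists were chosen with earlier results of these data known. Named genes are the 10 members, Lyn, 5 regulators and, per pathway list and comparison, at most the 2 called genes with the largest rise and the 2 with the largest fall.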

Additional observations from a re-analysis of the deposited data

Results flagged for a closer look

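In 4 of the 120 sets of 4 libraries (10 genes in 12 groups), 1 mouse lay apart from the other 3 by Dixon's test. Chance alone flags about 1 in 20 such sets. All 4 were low values. Nqo1 in LynKO without ligand was 2.947 CPM in mouse 1 and 5.651 to 6.045 in the others. Gclm in LynKO was 99.67 CPM in mouse 2 with LPS, where the others had 122.6 to 123.1, and 193.6 CPM in the same mouse with R848, where the others had 218.1 to 220.4. Gclc in LynAKO with LPS was 24.74 CPM in mouse 4 and 36.1 to 36.62 in the others.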

How the results depend on the processing

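Of 300 results (10 genes in 30 comparisons), 98 were called, and 85 of these were called under each of the 24 alternative settings that applied to them, 60 of 66 for a ligand against NT, 20 of 23 for R848 against LPS and 5 of 9 between genotypes. No called direction reversed under any setting. The mouse as a replicate block changed, within genotypes, the calls given with Prdx1, Gclc and Sqstm1. With LynBKO NT 2 and NT 3 exchanged in it, Gclm with R848 in LynBKO was called (0.0438). Between genotypes the numbers are different mice. Their libraries of the same number correlated at -0.25 to 0.29 in NT, 0.06 to 0.29 with LPS and 0.03 to 0.4 with R848. Libraries of the same number were also labelled the same sex, except LynBKO NT 2 and NT 3. What else the numbers share between genotypes was not tested.

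The number of the 10 genes called for LynKO against WT with LPS, 2, became 5 by DESeq2, 5 with a replicate block, 4 with sex as a covariate and 4 in the model of all 48 libraries, and 1 to 3 without 1 mouse. With R848, 2 became 4 by DESeq2, 5 with a replicate block and 5 without the filter, and 0 to 3 without 1 mouse. Counts of 0 became 1 without the filter for LynAKO against WT with NT and with R848, for LynBKO against WT with NT and for LynBKO against LynAKO with NT, and 1 by DESeq2 for LynBKO against WT with NT. The number of all genes called moved under these settings as well. Over the settings it was 2 to 131 for LynAKO against WT with NT (4 in the main fit) and 0 to 44 with R848 (1). For LynBKO with NT it was 3 to 471 against WT (9) and 0 to 199 against LynAKO (0). The cause was not tested. For Slc7a11 in LynAKO without ligand the adjusted p was 0.69 with the filter and 0.00329 without it. Over all genes, LynKO against WT gave 1187 calls with LPS (663 to 1697 over the settings) and 829 with R848 (464 to 1753). Of 122 called results of named other genes, 29 lost the call in at least 1 setting and 0 reversed. Nqo1, with as few as 41 counts in a library, and Slc7a11, with 81, are the genes that depth limits most.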
